A study of Mus musculus with 27 samples.

Results

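The measurement described here is how far loss of Raptor changed the response of mouse CD8+ T cells to stimulation through CD3 and CD28. For each gene it is the log2 response of Raptor KO cells (stimulated over resting) minus the log2 response of wild-type (WT) cells, called the response difference below. It used 12 of the 27 sequenced libraries, 3 in each of 4 groups, and was tested in 10493 of the 26802 genes in the deposited count table. WT CD8+ cells carried the genotype label B6-wt. Raptor KO cells carried the label B6-Tg(Cd4-cre)1Cwi-Rptortm1.1Dmsa, in which Cre driven by Cd4 deletes a floxed Rptor. Both genotypes were pooled lymph node and spleen cells, sorted negatively with magnets. Resting cells were kept for 48 h in medium with IL-7 at 5 ng/ml. Stimulated cells had antibodies to CD3 and CD28 bound to the plate at 10 µg/ml for the same 48 h, and the protocol names no IL-7 for them, so each response also contains the change from IL-7 to none. Cells stained by an MFG-E8 fusion protein or 7-AAD were removed as dead before RNA was taken. The labels give no age or sex. Nothing in them ties libraries to animals, and the spread behind each p-value may thus be technical.

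Raptor, encoded by Rptor, is the scaffold subunit of mTORC1, the complex in which the kinase mTOR joins nutrient and growth factor signals to protein synthesis and metabolism. Signals from the T cell receptor and CD28 activate mTORC1, and naive T cells then leave quiescence, grow, take up glucose and amino acids, and divide. Among the transcription factors known to act downstream of mTORC1 are ATF4 (amino acid supply), HIF1A (glycolysis) and the SREBP proteins (sterols and fatty acids). Cd4-cre acts in thymocytes that pass through a CD4+CD8+ stage, so that both mature subsets lose the floxed gene and the deletion precedes the culture. The wild-type label names neither Cre nor floxed alleles.

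The 12 libraries held 10194096 to 14964503 counts each, of which the ribosomal RNA precursor Rn45s took 82.9% to 87.3% and was left out. Of the remaining counts, protein-coding genes held 24.2% to 33.0% in resting WT, 49.9% to 62.5% in stimulated WT, 18.7% to 29.2% in resting Raptor KO and 31.8% to 47.8% in stimulated Raptor KO libraries. Resting Raptor KO library 3 stood apart, with 439031 CPM (counts scaled by the TMM-adjusted library total) of the small nuclear RNA Gm22513 against 147709 and 125337 in its group, or 22.5% of the counts of tested genes against 11.9% and 10.5%. Rptor itself was at 37.6, 52.6 and 45.7 CPM in the resting WT libraries, 23.3, 28.9 and 18.4 in the stimulated WT libraries, 39.7, 41.9 and 34.8 in the resting Raptor KO libraries and 22.6, 17.2 and 19.6 in the stimulated Raptor KO libraries, which overlapped between genotypes in each culture. Whole-gene counts include exons outside a floxed segment, so this check says little about the deletion. Cd8a was at 91.7 to 403 CPM in every library and Cd4 at no more than 5.49. Markers of B cells (10 genes, mostly Ighm) summed to 97.0 to 139 CPM in resting and 45.0 to 59.7 in stimulated libraries of both genotypes, with Pax5 and Ebf1 at 0 in resting WT and Cd22 at 0 in resting Raptor KO libraries. Markers of natural killer and gamma-delta T cells summed to 11.3 to 12.3 CPM in resting WT and 23.7 to 48.8 in resting Raptor KO libraries, mostly from Trdc, with Klra8 and Klre1 at 0. In stimulated libraries they summed to 3.55 to 5.89 in WT and 4.19 to 13.3 in Raptor KO, and the part of such cells in the results below was not tested. Stromal markers summed to 58.9 to 77.5 CPM in resting WT and 27.6 to 39.0 in resting Raptor KO libraries. Nearly all of this was Pecam1, with means of 68.9 and 31.4 CPM. The other stromal markers had means of no more than 1.08 CPM in either resting group. The part of stromal cells was likewise not tested. In bulk RNA, fewer cells of a type and less RNA per cell cannot be told apart.

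Stimulation changed most of the genes tested in either genotype, and a small fraction of genes responded differently between them. Of the genes tested, 3363 rose and 3229 fell in WT, and 3099 rose and 2733 fell in Raptor KO cells. The response difference was called higher, that is more positive in Raptor KO, for 178 genes (1.7% of those tested) and lower for 125 (1.19%). These shares are the background for the calls in each gene list below. Called means an adjusted p below 0.05 by edgeR's quasi-likelihood test with Benjamini-Hochberg adjustment, and ± gives the standard error of a log2 value. An unadjusted p below 0.05 was found for 1651 genes. The median response difference over all genes tested was 0.042 on the log2 scale.

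**Figure D1:**
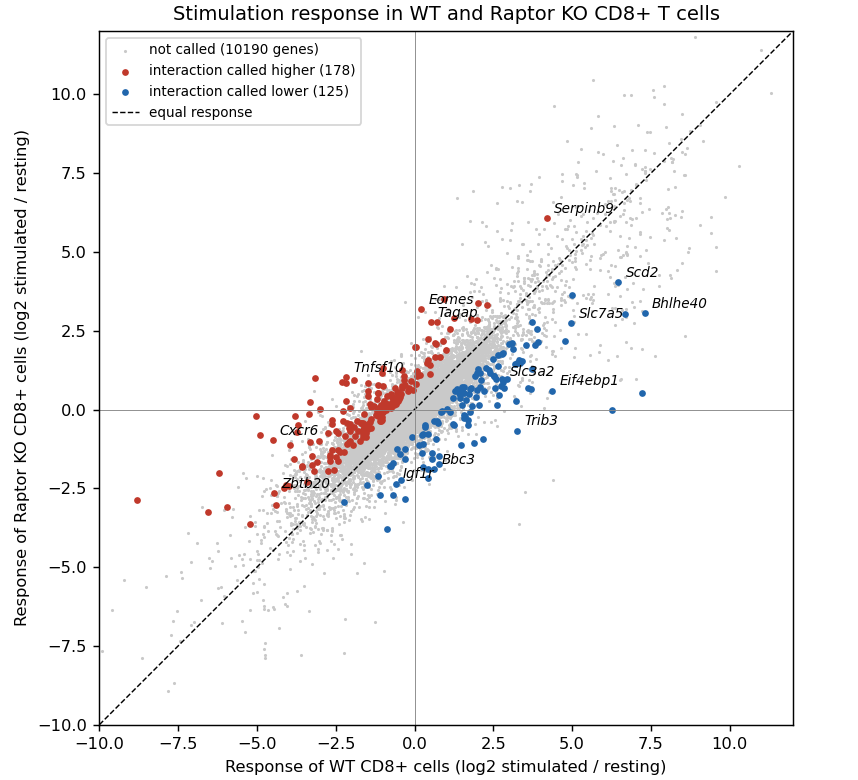
Each point is a gene, with the log2 response of WT CD8+ cells on the horizontal axis and that of Raptor KO CD8+ cells on the vertical axis. Red and blue points are the 178 genes called higher and the 125 called lower, and the dashed line marks equal response. Most blue points lie at positive WT responses and below the line, and most red points lie at negative WT responses and above it.

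The genes called lower were mostly genes of the WT activation programme. Of the 125, 96 rose and 10 fell in WT cells, and 58 rose and 36 fell in Raptor KO cells. Their median level went from 21.8 CPM at rest to 63.2 after stimulation in WT, and from 25.7 to 31.6 in Raptor KO libraries, each the median over genes of the group means. The 178 genes called higher were mostly genes that WT cells turned down: 139 fell and 19 rose in WT, and 62 fell and 51 rose in Raptor KO cells. Their median level was 52.3 CPM at rest and 23.2 after stimulation in WT, and 44.2 and 41.7 in Raptor KO libraries. These medians describe genes chosen by the response difference and are no test of it. The calls depended on the scaling. One alternative kept Rn45s in the library totals and also used no TMM factors. It is called Rn45s kept below, and the share of each change in its effect was not tested. With Rn45s kept the median of all genes tested moved to -0.43, and 5 genes were called higher and 33 lower. With DESeq2's median-ratio factors the split was 157 higher and 154 lower. Without stimulated WT library 1, 118 were called higher and 98 lower, and without resting Raptor KO library 3, which stood apart, 148 and 125.

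Of the genes named below whose response difference was called, those still called with Rn45s kept were Aars, Bbc3, Bhlhe40, Ccng1, Cxcr6, Cyp51, Ddit4, Eif4ebp1, Elovl6, Gpt2, Grhpr, Igf1r, Ly6a, Ms4a4c, Nars, Pfkm, Prss12, Psph, Scd2, Scpep1, Shmt2, Slc2a1, Slc3a2, Slc7a3, Slc7a5, Tars, Tnfsf10, Trib3, Yars and Zmat3. The calls of the others ended under that scaling, and none changed sign. By list, the genes called lower then numbered 4 of the ATF4 response, 4 tRNA synthetases, 2 of serine and one-carbon metabolism, 1 of amino acid synthesis, 2 glycolytic genes and 1 of cholesterol synthesis, and 3 each of amino acid transporters, fatty acid synthesis and p53 targets. None of the naive and quiescence, cytotoxic, cytokine receptor, interferon response or effector and memory factor lists was then called.

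Genes of the ATF4 response, the programme that raises amino acid supply, had the lowest median of the 43 gene lists examined. The lists were chosen with earlier results of these data known, so this rank is a description and no test. Of 18 members tested, 15 rose in WT cells and 7 in Raptor KO cells. The response difference was called lower for 6 and higher for 0, beside 1.19% and 1.7% of all genes tested. The median was -2.68 beside 0.042 over all genes tested. Because 8 members had 3 counts or fewer in a group, the median was also taken with those groups set to a floor of 3 counts over the 3 libraries, which gave -3.14. In stimulated cells, 14 of the 18 were called lower in Raptor KO than in WT, beside 5.42% of all genes tested.

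Eif4ebp1 (4E-BP1, the translation repressor that mTORC1 phosphorylates, and itself a known ATF4 target; chr8:27260329-27276674) was at 1.42, 4.11 and 1.83 CPM in the resting WT libraries, 47.3, 57.8 and 45.3 in the stimulated WT libraries, 5.49, 3.38 and 6.24 in the resting Raptor KO libraries and 8.37, 10.5 and 4.71 in the stimulated Raptor KO libraries. Every stimulated WT library lay above every other library, and the stimulated Raptor KO libraries overlapped the resting ones of their genotype. The gene rose in WT by 4.37 on the log2 scale, and the response difference was -3.77 ± 0.63, adjusted p = 0.00019. Trib3, a pseudokinase induced with the ATF4 programme (chr2:152337422-152344032), was at 4.26, 2.46 and 1.22 CPM in the resting WT libraries, 21.7, 36.4 and 19.2 in the stimulated WT libraries, 3.66, 2.70 and 0.891 in the resting Raptor KO libraries and 1.67, 2.09 and 1.18 in the stimulated Raptor KO libraries. Its response difference was -3.92 ± 0.82, adjusted p = 0.0029, and its call was lost when 1 library was left out (adjusted p = 0.057 without resting Raptor KO library 1). Atf4 itself was at 118, 77.2 and 81.7 CPM in the resting WT libraries, 382, 356 and 367 in the stimulated WT libraries, 98.8, 124 and 89.1 in the resting Raptor KO libraries and 167, 169 and 143 in the stimulated Raptor KO libraries. It rose in both genotypes, by 2.00 in WT and 0.61 in Raptor KO, with a response difference of -1.38 ± 0.24, adjusted p = 0.0003, and the resting groups overlapped while the stimulated groups did not.

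Gpt2 of this list and Slc7a3 of the amino acid transporter list were close to absent outside stimulated WT cells. Gpt2, a mitochondrial alanine aminotransferase, was at 38.6, 55.7 and 40.4 CPM in the stimulated WT libraries and at no more than 1.78 in any other. Slc7a3, a cationic amino acid transporter, was at 41.8, 45.0 and 37.1 and at no more than 1.35 elsewhere. Both were called (adjusted p = 0.017 and 0.0065), but a fitted log2 value for so few counts is not given. The calls rested on the few counts of resting Raptor KO libraries: that of Gpt2 was lost with adjusted p = 0.0576 without resting Raptor KO library 1 and 0.277 without resting Raptor KO library 3, and that of Slc7a3 with 0.246 without resting Raptor KO library 2. Asns, asparagine synthetase, was at 132, 164 and 121 CPM in stimulated WT and 5.02, 2.61 and 4.71 in stimulated Raptor KO libraries. At rest it stood at 0.709, 0 and 0.610 in WT and 0 in all 3 Raptor KO libraries, where the floor of 3 counts is 0.707 CPM. Its response difference was not called (adjusted p = 0.94), while the difference between stimulated groups was -5.07 ± 0.29, adjusted p = 3.5e-13.

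Pck2, mitochondrial phosphoenolpyruvate carboxykinase, was at 12.1, 9.03 and 7.93 CPM in the resting WT libraries, 67.8, 77.6 and 61.4 in the stimulated WT libraries, 4.88, 3.38 and 4.46 in the resting Raptor KO libraries and 4.18, 7.84 and 7.45 in the stimulated Raptor KO libraries, a response difference of -2.14 ± 0.51, adjusted p = 0.01. The call was lost at adjusted p = 0.0709 without resting Raptor KO library 1. Ddit4, an inhibitor of mTORC1 that stress induces, was at 109, 155 and 63.6 CPM in stimulated WT and 33.5, 18.8 and 5.88 in stimulated Raptor KO libraries, with no overlap, against 9.93, 9.03 and 15.2 and 12.8, 17.6 and 12.5 at rest. Its response difference was -2.94 ± 0.76, adjusted p = 0.042, and the call held in only 2 of the 12 single-library omissions, those of stimulated WT library 3 and stimulated Raptor KO library 1 (adjusted p up to 0.124, without resting Raptor KO library 2).

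Cytosolic aminoacyl-tRNA synthetases, which load amino acids onto tRNA, had the most calls of any list. All 20 rose in both genotypes, with median log2 responses of 2.26 in WT and 1.34 in Raptor KO cells. The response difference was called lower for 11 and higher for 0, beside 1.19% and 1.7% of all genes tested, with a median of -0.88. Sars, the seryl-tRNA synthetase, was at 41.1, 43.5 and 41.5 CPM in the resting WT libraries, 163, 176 and 148 in the stimulated WT libraries, 43.9, 57.4 and 47.2 in the resting Raptor KO libraries and 59.4, 70.0 and 66.6 in the stimulated Raptor KO libraries. Its response difference was -1.54 ± 0.20, adjusted p = 2.9e-06. Aars, the alanyl-tRNA synthetase, was at 21.3, 14.8 and 13.4 CPM in the resting WT libraries, 154, 191 and 177 in the stimulated WT libraries, 18.9, 14.2 and 17.8 in the resting Raptor KO libraries and 56.1, 52.3 and 41.2 in the stimulated Raptor KO libraries, with a response difference of -1.87 ± 0.27, adjusted p = 1.9e-05. In both genes the stimulated Raptor KO libraries lay above the resting libraries and below every stimulated WT library. Nars (-1.81), Yars (-1.95), Tars (-1.87) and Gars (-0.91) were also called. The call of Gars was lost at adjusted p = 0.0535 without resting WT library 2 and 0.0989 without resting Raptor KO library 2, and those of the other 5 named synthetases held in each single-library omission.

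The promoters of the genes called lower were searched for the ATF response element TGATGNAA, on both strands, in the 250 bases before each RefSeq start site (GRCm38.p6). The element was present in 9 of the 144 promoters of the 107 matched genes (6.25%), against 3.45% of all promoters and 1.93% of those of genes tested. It was in 6 of 18 promoters (33.3%) of the ATF4 list, whose definition leans on known targets, and in 1 of 163 promoters (0.613%) of genes called higher. For tRNA synthetases the count was 3 of 13 promoters, and for amino acid synthesis 3 of 16. For amino acid transporters it was 1 of 17, and for serine and one-carbon metabolism 0 of 11. The element was in promoters of 8 genes called lower, and 7 of these are shown with the bases around it. Each stretch is written 5′ to 3′ on the gene's strand, with the match in capitals.
Tars: caggagtcccgTTGCATCAgctggtt
Herpud1: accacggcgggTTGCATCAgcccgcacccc
Got1: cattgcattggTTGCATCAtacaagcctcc
Pck2: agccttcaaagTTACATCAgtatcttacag
Gars: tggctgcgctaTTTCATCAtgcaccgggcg
Themis: aggccactctgTTTCATCAcaattttgcca
Arl14ep: tttacataggtTGATGGAAacctccgaggt
Tars, Herpud1 and Got1 share the same 8 letters, and in all those shown but Arl14ep the element reads on the strand opposite to the gene. Arl14ep holds the element in the orientation of the gene. The stretches lie at chr15:11399659-11399684 for Tars (minus strand), chr8:94386306-94386335 for Herpud1, chr19:43524689-43524718 for Got1 (minus strand), chr14:55540152-55540181 for Pck2, chr6:55037960-55037989 for Gars, chr10:28668208-28668237 for Themis and chr2:106973142-106973171 for Arl14ep (minus strand). The match began 15 bases before the start site in Tars and 30 in Gars, and between 102 and 141 bases before it in the other 5 shown. A match describes letters, not binding. The response difference of Themis was -0.94 (adjusted p = 0.028), and its call was lost in 6 of the 12 single-library omissions. That of Arl14ep was -1.33 (adjusted p = 0.018), with its call lost in 2 of 12. Tars, Gars and Arl14ep are no genes of the naming rule and are named for these promoters, after their values were seen.

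Serine synthesis and one-carbon enzymes, which feed nucleotide synthesis, rose in WT in 12 of 13 members and in Raptor KO in 9, and 3 had a response difference called lower (median -0.68). Psph, the phosphatase that makes serine, was at 8.51, 8.21 and 8.54 CPM in the resting WT libraries, 40.2, 46.6 and 68.4 in the stimulated WT libraries, 8.54, 11.5 and 6.24 in the resting Raptor KO libraries and 10.9, 11.0 and 8.23 in the stimulated Raptor KO libraries. The Raptor KO libraries overlapped between cultures, and the response difference was -2.49 ± 0.40, adjusted p = 8.1e-05. Shmt2, the mitochondrial serine hydroxymethyltransferase, gave -1.75 ± 0.31, adjusted p = 0.001. Phgdh, the first enzyme of serine synthesis, gave -1.77 ± 0.45, adjusted p = 0.025, lost at adjusted p = 0.0736 without resting WT library 1 and 0.125 without resting Raptor KO library 3. Psat1, the enzyme between Phgdh and Psph, was not called (-1.09 ± 0.37, adjusted p = 0.18). Among 18 genes of amino acid synthesis and transamination, 3 were called lower (median -0.68, and -0.86 with low groups at the floor), and these included Got1, aspartate aminotransferase (-1.76 ± 0.36, adjusted p = 0.0026), and Aldh18a1 of proline synthesis (-1.22 ± 0.28, adjusted p = 0.0067).

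Of 16 amino acid transporters, 3 were called lower (median -0.47). Besides Slc7a3 they were the 2 chains of the large neutral amino acid transporter. Its heavy chain Slc3a2 (CD98; chr19:8706882-8723369) was at 23.4, 26.3 and 28.7 CPM in the resting WT libraries, 181, 211 and 158 in the stimulated WT libraries, 50.6, 60.1 and 40.1 in the resting Raptor KO libraries and 97.1, 88.3 and 94.5 in the stimulated Raptor KO libraries. The resting Raptor KO libraries were all above the resting WT ones (0.95 ± 0.17, adjusted p = 0.00085), and the stimulated Raptor KO libraries all below the stimulated WT ones (-0.97 ± 0.14, adjusted p = 2.5e-06). The response difference of Slc3a2, -1.92 ± 0.22, adjusted p = 3.9e-07, had a part from each culture. The light chain Slc7a5 was at 9.22, 9.03 and 26.8 CPM in the resting WT libraries, 493, 509 and 468 in the stimulated WT libraries, 14.0, 16.2 and 19.6 in the resting Raptor KO libraries and 103, 124 and 101 in the stimulated Raptor KO libraries. It rose in both genotypes, by 4.98 in WT and 2.73 in Raptor KO, with a response difference of -2.24 ± 0.42, adjusted p = 0.0038.

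Glycolytic genes formed the next group. Of 21 tested, 19 rose in WT and 16 in Raptor KO cells, with median log2 responses of 2.55 and 1.07. The response difference was called lower for 10 and higher for 0, beside 1.19% and 1.7% of all genes tested. The median was -1.11, and with Rn45s kept 2 were called lower and 0 higher. The glucose transporter Slc2a1 (GLUT1; chr4:119108711-119137983) was at 13.5, 12.3 and 15.2 CPM in the resting WT libraries, 98.9, 103 and 78.1 in the stimulated WT libraries, 20.7, 23.0 and 16.9 in the resting Raptor KO libraries and 31.0, 39.2 and 32.5 in the stimulated Raptor KO libraries. The 2 stimulated groups did not overlap, and the response difference was -2.00 ± 0.31, adjusted p = 5.5e-05. Aldoa, aldolase A, was at 113, 88.7 and 75.6 CPM in the resting WT libraries, 515, 586 and 500.0 in the stimulated WT libraries, 113, 98.7 and 131 in the resting Raptor KO libraries and 255, 240.5 and 223 in the stimulated Raptor KO libraries, with a response difference of -1.46 ± 0.19, adjusted p = 5.3e-06. Gapdh (-1.32) and Pkm (-1.20) were also called, and all 3 have pseudogenes that can take or share their reads, so their values are uncertain. The muscle-type phosphofructokinase Pfkm rose in WT and did not pass the test in Raptor KO cells. It went from 3.55, 1.64 and 1.83 to 10.6, 13.9 and 8.77 CPM in WT and from 6.71, 4.73 and 8.02 to 6.70, 2.61 and 1.96 in Raptor KO libraries (-3.13 ± 0.63, adjusted p = 0.002).

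Of 16 genes of the hypoxia response, 2 were called lower (median -0.94), the oxidoreductase gene Ero1l, whose call was lost in 4 of the 12 single-library omissions, and Bhlhe40, described below. The core hypoxia element ACGTG, searched on both strands, was in 14 of 32 promoters of glycolytic genes (43.8%), in 28.5% of promoters of genes called lower, and in 22.7% of those of genes tested. The E-box CACGTG contains these letters. None of the 9 pentose phosphate genes tested was called (median -0.64). In the tricarboxylic acid cycle and pyruvate list, 1 of 27 was called lower (median -0.24): Dld, the dihydrolipoamide dehydrogenase shared by the mitochondrial 2-oxoacid complexes (-1.37 ± 0.32, adjusted p = 0.0087). Nuclear respiratory chain genes had 0 calls in 73 (median -0.23), and the 8 transcripts of the mitochondrial genome had 0 calls, with all 8 above 0 (median 0.80). Over all genes tested 1.7% were called higher and 1.19% lower, so a list with 0 or 1 call here is near the background.

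Lipid synthesis genes were called in the same direction. Of 26 genes of cholesterol synthesis and SREBP2, 23 rose in WT and 18 in Raptor KO cells. The response difference was called lower for 4 and higher for 0 (median -0.85). Dhcr7, the last enzyme of cholesterol synthesis, was at 14.2, 16.4 and 12.2 CPM in the resting WT libraries, 53.2, 45.5 and 43.8 in the stimulated WT libraries, 12.8, 8.11 and 16.0 in the resting Raptor KO libraries and 8.37, 13.6 and 11.4 in the stimulated Raptor KO libraries. It rose in WT and did not pass the test in Raptor KO (-0.082), with a response difference of -1.83 ± 0.37, adjusted p = 0.0022. Cyp51 (-1.76 ± 0.34, adjusted p = 0.0019) and Lss (-1.47 ± 0.35, adjusted p = 0.0099), earlier enzymes of the pathway, rose in both genotypes and less in Raptor KO. In stimulated cells 19 of the 26 were called lower in Raptor KO than in WT, beside 5.42% of all genes tested. The sterol element TCACNCCAC was found in 1 of 25 promoters of the list (4%), against 1.05% of all promoters, and in no promoter of its called genes.

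Of 16 fatty acid synthesis and desaturation genes, 13 rose in WT and 9 in Raptor KO cells, and 3 had a response difference called lower (median -1.01). Scd2, a stearoyl-CoA desaturase (chr19:44293674-44306864), was at 9.93, 6.57 and 11.0 CPM in the resting WT libraries, 836, 881 and 755 in the stimulated WT libraries, 6.71, 6.76 and 14.3 in the resting Raptor KO libraries and 162, 196 and 88.2 in the stimulated Raptor KO libraries. Stimulated libraries stood far above resting ones in both genotypes, and the Raptor KO ones below the WT ones. The response difference of Scd2 was -2.42 ± 0.54, adjusted p = 0.017, lost at adjusted p = 0.0516 without resting WT library 2 and 0.0772 without resting Raptor KO library 3. Elovl6, a fatty acid elongase, did not change significantly in WT (0.55) and fell in Raptor KO (-1.37). Its response difference was -1.92 ± 0.43, adjusted p = 0.0064, lost at adjusted p = 0.0501 without resting Raptor KO library 1 and 0.0514 without stimulated Raptor KO library 3.

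Of 21 p53 targets, 14 rose in WT and 7 in Raptor KO cells, and 3 were called lower (median -0.61). Ccng1, the cyclin G1 gene, was at 27.7, 38.6 and 40.3 CPM in the resting WT libraries, 123, 98.0 and 100.4 in the stimulated WT libraries, 47.0, 28.4 and 48.1 in the resting Raptor KO libraries and 41.9, 35.5 and 31.0 in the stimulated Raptor KO libraries. All stimulated WT libraries exceeded all others, with a response difference of -1.80 ± 0.26, adjusted p = 2.2e-05. Zmat3, a p53-induced RNA-binding protein, gave -1.84 ± 0.36, adjusted p = 0.0016. Bbc3 (PUMA), which promotes cell death and stands in the p53 and the BCL2 family lists, was at 8.51, 7.39 and 9.76 CPM in the resting WT libraries, 12.6, 15.5 and 12.4 in the stimulated WT libraries, 12.2, 16.9 and 17.8 in the resting Raptor KO libraries and 5.02, 4.18 and 3.53 in the stimulated Raptor KO libraries. It fell in Raptor KO and did not pass the test in WT (0.63), with a response difference of -2.53 ± 0.47, adjusted p = 0.00086. The survival gene Mcl1 of the same family was called in the other direction (0.79 ± 0.19, adjusted p = 0.011), and lost at adjusted p = 0.0547 without stimulated WT library 3.

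The calls of Igf1r, Herpud1, Grhpr and Txnrd1 held in each single-library omission. Igf1r, the receptor for insulin-like growth factor 1 (chr7:67952827-68233668), was at 43.3, 41.9 and 44.5 CPM in the resting WT libraries, 24.0, 26.8 and 33.9 in the stimulated WT libraries, 54.3, 54.7 and 67.7 in the resting Raptor KO libraries and 7.53, 14.6 and 11.0 in the stimulated Raptor KO libraries. It fell in both genotypes, more in Raptor KO, with a response difference of -1.75 ± 0.28, adjusted p = 7.2e-05. Herpud1, a gene of the unfolded protein response, rose in WT (0.43) and fell in Raptor KO (-0.79; response difference -1.23 ± 0.25, adjusted p = 0.0021). Grhpr, glyoxylate and hydroxypyruvate reductase, rose from 4.26, 4.11 and 1.83 to 9.07, 19.8 and 9.90 CPM in WT and stood at 6.10, 4.05 and 5.35 and 0.837, 3.66 and 2.35 in Raptor KO libraries (-2.96 ± 0.66, adjusted p = 0.0061). Txnrd1, thioredoxin reductase, gave -1.02 ± 0.22, adjusted p = 0.0041, and it was already higher in resting Raptor KO than in resting WT cells (0.81 ± 0.17, adjusted p = 0.0039).

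**Figure D2:**
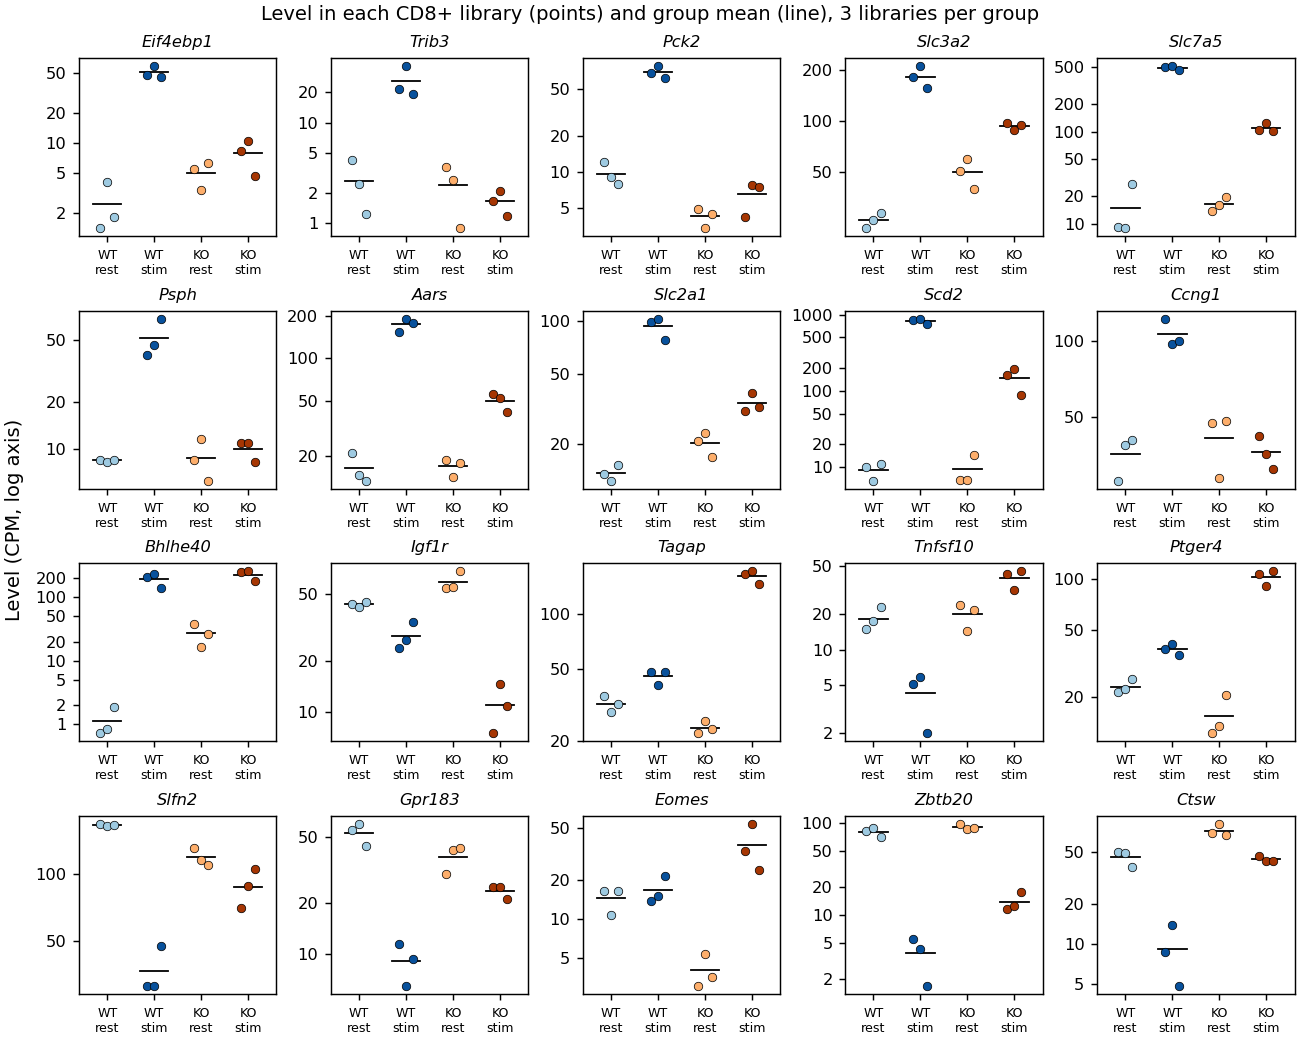
Each panel is a gene, with its level in CPM on a log axis, a point for each of the 3 libraries of a group and a line at the group mean. In the panels from Eif4ebp1 to Ccng1 the stimulated WT libraries are the highest group, in Bhlhe40 the resting WT libraries stand alone at the bottom, and in Tagap, Tnfsf10 and Ptger4 the stimulated Raptor KO libraries are the highest.

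All 27 tested genes of the activation list rose in WT and in Raptor KO cells. Their median response difference was 0.0064 (0.30 with low groups at the floor, -0.05 with median-ratio factors and -0.39 with Rn45s kept), and 2 were called lower, Slc3a2 and Bhlhe40, beside 1.19% of all genes tested. Il2ra (CD25) was at 2.13, 3.29 and 3.05 CPM in the resting WT libraries, 521, 558 and 443 in the stimulated WT libraries, 4.88, 2.03 and 0.891 in the resting Raptor KO libraries and 613, 609 and 463 in the stimulated Raptor KO libraries, with a response difference of 0.16 ± 0.71, adjusted p = 0.96. Myc was at 39.0, 37.0 and 96.4 CPM in the resting WT libraries, 275, 262 and 303 in the stimulated WT libraries, 48.8, 63.5 and 94.5 in the resting Raptor KO libraries and 406, 418 and 428 in the stimulated Raptor KO libraries, with a response difference of 0.34 ± 0.40, adjusted p = 0.76. Klf2, a quiescence factor that activation shuts off, was at 2.37, 0.535 and 1.70 CPM in stimulated WT and 2.51, 2.61 and 1.57 in stimulated Raptor KO libraries, against 189, 227 and 228 and 174, 296 and 237 at rest (0.24 ± 0.67, adjusted p = 0.93). The stimulated groups of Il2ra and Klf2 overlapped, while those of Myc did not (Raptor KO against WT 0.57 ± 0.27, adjusted p = 0.18). A failed test does not show equal responses.

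Cell division genes rose in both genotypes. Of 34 DNA replication genes, 33 rose in WT and 33 in Raptor KO cells, and 0 had a called response difference (median -0.064); Mcm2, a helicase subunit, gave -0.47 ± 0.25, adjusted p = 0.36. Of 28 genes of G2 and M phase, 27 rose in WT and 27 in Raptor KO cells, again with 0 calls (median 0.077, -0.13 with the 16 members that had few counts at the floor, and -0.42 with Rn45s kept). Of 55 ribosome biogenesis genes, 52 rose in WT and 49 in Raptor KO cells, and 1 was called lower (median -0.19). Among 78 cytosolic ribosomal proteins, 2 were called higher, Rps7 and Rps15a, with a list median of 0.31 that turned to -0.17 with Rn45s kept. Both have many pseudogenes and are uncertain. The calls were lost at adjusted p = 0.0591 without stimulated WT library 1, 0.0665 without resting Raptor KO library 3 and 0.0589 without stimulated Raptor KO library 3 for Rps7, and at 0.0624 without stimulated WT library 1 and 0.0953 without stimulated Raptor KO library 3 for Rps15a. None of the 10 genes of the MYC network or the 9 of the mTOR complexes was called, with Mtor at -0.28 ± 0.23, adjusted p = 0.61. Of 30 genes up- or downstream of mTORC1, 2 were called, Eif4ebp1 and Ddit4, both lower (median -0.084). With 1.7% of all genes tested called higher and 1.19% lower, 0 or 1 call in these lists is near the background and no result about them.

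**Figure D3:**
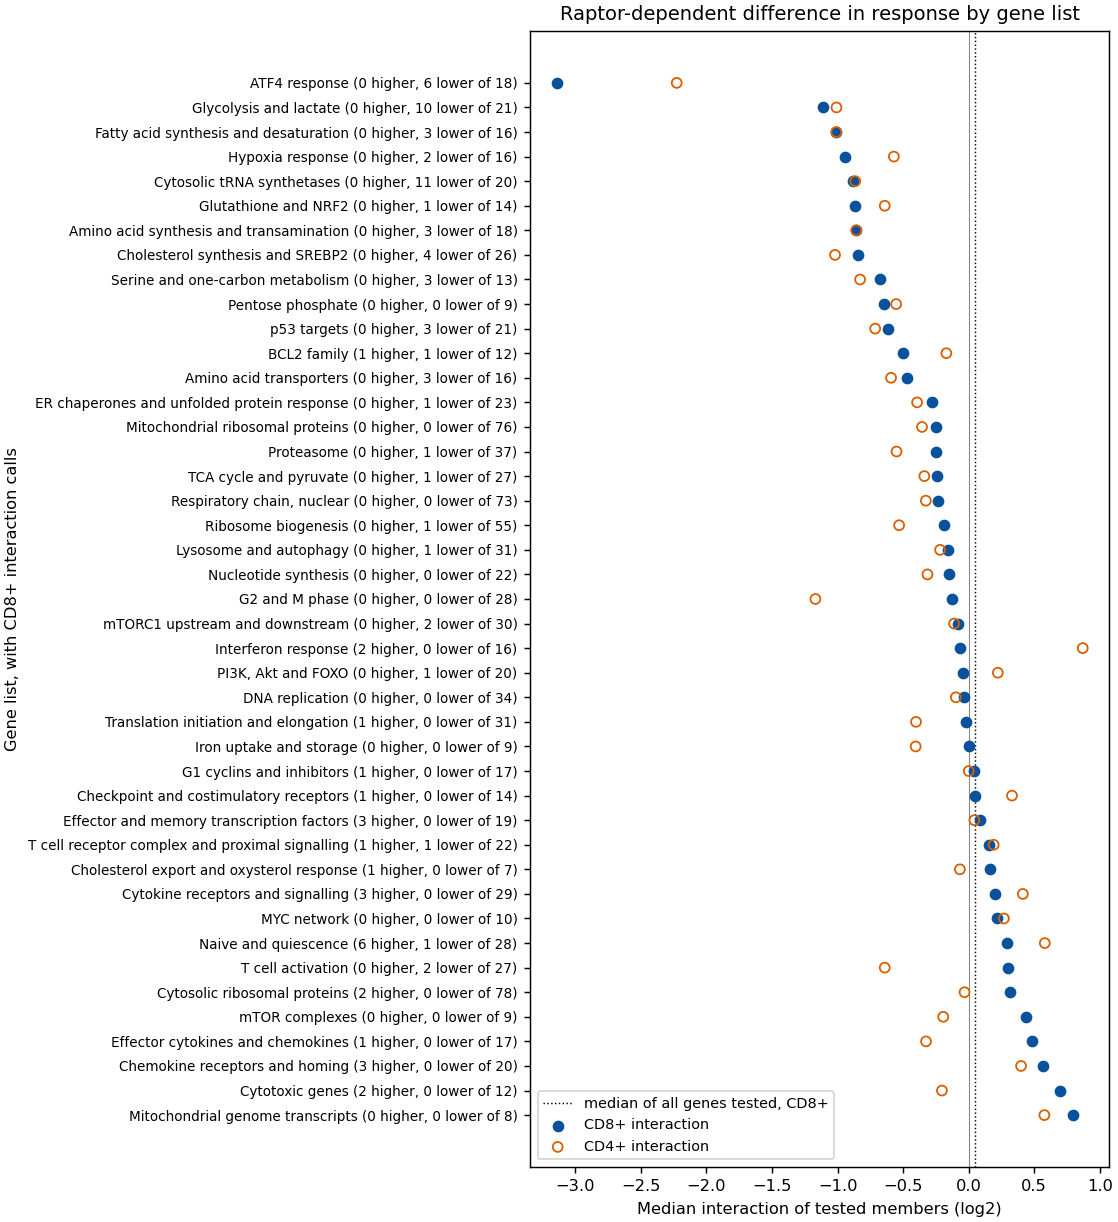
Each row is a gene list, with the number of CD8+ calls in its label. Filled points are the median log2 response difference of its tested members in CD8+ cells and open circles the same in CD4+ cells, with groups of few counts set to the floor; the dotted line is the CD8+ median of all genes tested. The ATF4 response lies lowest, at -3.14 in CD8+ and -2.23 in CD4+ cells, with glycolysis, fatty acid synthesis, hypoxia and tRNA synthetases next among the lists below the line.

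Among genes called higher, some rose more in Raptor KO than in WT cells. Tagap, a GTPase-activating protein of activated T cells (chr17:7926000-7934897), was at 35.5, 28.7 and 31.7 CPM in the resting WT libraries, 47.7, 40.7 and 47.8 in the stimulated WT libraries, 22.0, 25.7 and 23.2 in the resting Raptor KO libraries and 167, 173 and 146 in the stimulated Raptor KO libraries. The stimulated Raptor KO libraries were above every other library, and the response difference was 2.26 ± 0.26, adjusted p = 3.9e-07. Ptger4, the prostaglandin E2 receptor EP4, was at 21.3, 22.2 and 25.6 CPM in the resting WT libraries, 38.6, 41.2 and 35.6 in the stimulated WT libraries, 12.2, 13.5 and 20.5 in the resting Raptor KO libraries and 106, 90.4 and 111 in the stimulated Raptor KO libraries. It rose in WT by 0.73 and in Raptor KO by 2.77, a response difference of 2.04 ± 0.31, adjusted p = 5.5e-05. Stat5a, which carries signals from IL-2 and IL-7, was at 133, 135 and 160.1 CPM in stimulated WT and 269.5, 315 and 230.1 in stimulated Raptor KO libraries, against 22.0, 31.2 and 33.5 and 27.5, 31.1 and 23.2 at rest. Its response difference was 1.00 ± 0.24, adjusted p = 0.011, lost at adjusted p = 0.0578 without resting WT library 3. Nfkbia, the NF-kB inhibitor, rose in Raptor KO (1.48) and not significantly in WT (0.40; response difference 1.08 ± 0.26, adjusted p = 0.014), lost at adjusted p = 0.0509 without stimulated WT library 1 and 0.0525 without stimulated Raptor KO library 2.

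Others went in opposite directions in the 2 genotypes. Tnfsf10 (TRAIL, a death ligand; chr3:27317028-27342427) was at 14.9, 17.2 and 22.6 CPM in the resting WT libraries, 5.12, 5.89 and 1.98 in the stimulated WT libraries, 23.8, 14.2 and 21.4 in the resting Raptor KO libraries and 43.5, 31.4 and 45.5 in the stimulated Raptor KO libraries. It fell in WT by 2.18 and rose in Raptor KO by 1.02, a response difference of 3.20 ± 0.41, adjusted p = 2.9e-06. Irf1, a transcription factor of the interferon response, likewise fell in WT (-0.62) and rose in Raptor KO (0.67; response difference 1.30 ± 0.25, adjusted p = 0.0013). Ms4a4c, a membrane protein of the MS4A family, went from 14.2, 18.1 and 34.2 to 5.12, 4.28 and 7.64 CPM in WT and from 18.9, 20.3 and 24.1 to 26.8, 36.1 and 54.9 in Raptor KO libraries (2.86 ± 0.52, adjusted p = 0.0013). Pla2g16, a phospholipase, had the same pattern of calls (2.32 ± 0.46, adjusted p = 0.002).

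A further set fell in WT and fell less, or did not pass the test, in Raptor KO cells. Slfn2, a gene needed for T cell quiescence (chr11:83065112-83070678), was at 169, 164 and 166 CPM in the resting WT libraries, 31.5, 31.6 and 47.5 in the stimulated WT libraries, 131, 116 and 111 in the resting Raptor KO libraries and 70.3, 88.3 and 105 in the stimulated Raptor KO libraries. The stimulated Raptor KO libraries lay between stimulated WT and resting libraries, with a response difference of 1.73 ± 0.25, adjusted p = 1.9e-05. Gpr183 (EBI2, an oxysterol receptor that guides cells in lymphoid tissue) was at 55.3, 60.0 and 43.9 CPM in the resting WT libraries, 11.4, 6.42 and 9.33 in the stimulated WT libraries, 29.9, 41.9 and 42.8 in the resting Raptor KO libraries and 25.1, 25.1 and 21.2 in the stimulated Raptor KO libraries, a response difference of 1.82 ± 0.31, adjusted p = 0.0002. Sfxn3, a mitochondrial serine carrier, was at 55.3, 60.8 and 61.6 CPM in the resting WT libraries, 3.94, 2.68 and 5.09 in the stimulated WT libraries, 54.3, 57.4 and 30.3 in the resting Raptor KO libraries and 15.1, 13.1 and 19.2 in the stimulated Raptor KO libraries, a response difference of 2.25 ± 0.35, adjusted p = 7.2e-05. Tgfbr1, a chain of the TGF-beta receptor, fell in WT and did not pass the test in Raptor KO cells. It was at 27.0, 26.3 and 26.2 CPM in the resting WT libraries, 10.2, 9.63 and 10.2 in the stimulated WT libraries, 25.6, 23.0 and 25.8 in the resting Raptor KO libraries and 24.3, 29.8 and 23.9 in the stimulated Raptor KO libraries (1.46 ± 0.30, adjusted p = 0.0025). Only the stimulated WT libraries of Tgfbr1 were low, with no overlap with the other 9.

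Of 28 naive and quiescence genes, 26 fell in WT and 21 in Raptor KO cells. The response difference was called higher for 6 and lower for 1, with a median of 0.40 that turned to -0.091 with Rn45s kept. Besides Slfn2, they included Btg1, an antiproliferative gene (1.09 ± 0.19, adjusted p = 0.00048), and Cnn2, calponin 2 (0.89 ± 0.20, adjusted p = 0.0066), whose call was lost at adjusted p = 0.08 without stimulated Raptor KO library 3. The 1 called lower was Tcf7 (TCF-1, a factor of naive and memory cells), at -0.68 ± 0.19, adjusted p = 0.033, which fell in both genotypes and lost its call in 7 of the 12 single-library omissions. Of 14 checkpoint and costimulatory receptors, 1 was called, Vsir (VISTA, which restrains T cells), at 1.43 ± 0.32, adjusted p = 0.011, lost at adjusted p = 0.0888 without stimulated Raptor KO library 3.

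Of 12 cytotoxic genes, 2 were called higher and 0 lower (median 0.70), beside 1.7% and 1.19% of all genes tested. Ctsw, cathepsin W of cytotoxic cells, was at 49.7, 49.3 and 38.4 CPM in the resting WT libraries, 8.67, 13.9 and 4.81 in the stimulated WT libraries, 69.5, 81.8 and 66.8 in the resting Raptor KO libraries and 46.9, 42.9 and 42.3 in the stimulated Raptor KO libraries. It fell in both genotypes and less in Raptor KO, a response difference of 1.69 ± 0.33, adjusted p = 0.0018. Serpinb9, which protects cytotoxic cells from their own granzyme B, was at 12.8, 11.5 and 8.54 CPM in the resting WT libraries, 206, 135 and 259 in the stimulated WT libraries, 6.71, 3.38 and 4.46 in the resting Raptor KO libraries and 357, 373 and 273 in the stimulated Raptor KO libraries, with a response difference of 1.86 ± 0.38, adjusted p = 0.0026. Of 19 effector and memory transcription factors, 3 were called higher (median 0.085, and -0.35 with Rn45s kept). Eomes (Eomesodermin, a T-box factor of effector and memory CD8+ cells; chr9:118478212-118486132) was at 16.3, 10.7 and 16.5 CPM in the resting WT libraries, 13.8, 15.0 and 21.5 in the stimulated WT libraries, 3.05, 5.41 and 3.56 in the resting Raptor KO libraries and 33.5, 53.8 and 23.9 in the stimulated Raptor KO libraries. It did not pass the test in WT (0.22) and rose in Raptor KO (3.18). It was lower in resting Raptor KO than in resting WT (-1.85 ± 0.48, adjusted p = 0.042) and higher after stimulation (1.11 ± 0.31, adjusted p = 0.013), with a response difference of 2.97 ± 0.56, adjusted p = 0.0014. Zbtb20, a repressor studied in memory CD8+ cells, was at 82.3, 87.9 and 70.8 CPM in the resting WT libraries, 5.52, 4.28 and 1.70 in the stimulated WT libraries, 98.2, 87.2 and 87.3 in the resting Raptor KO libraries and 11.7, 12.5 and 17.6 in the stimulated Raptor KO libraries, a response difference of 1.81 ± 0.35, adjusted p = 0.0013. Id2, the third, gave 1.44 ± 0.38, adjusted p = 0.03 and lost its call in 6 of the 12 single-library omissions. Tbx21 (T-bet) went the other way without passing the test (-1.57 ± 0.51, adjusted p = 0.086), at 4.26, 2.46 and 3.05 CPM in resting WT and 11.0, 15.5 and 7.13 in resting Raptor KO libraries (1.79 ± 0.46, adjusted p = 0.041).

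Of 29 cytokine receptor and signalling genes, 3 were called higher, Tgfbr1, Stat5a and Tgfbr2, beside 1.7% of all genes tested. The list median was 0.19 and turned to -0.24 with Rn45s kept. Tgfbr2 (0.78 ± 0.22, adjusted p = 0.038) lost its call in 6 of the 12 omissions. Of 20 chemokine receptor and homing genes, 3 were called higher, Gpr183, Itga4 and Cxcr6 (median 0.69). Itga4, the alpha-4 integrin, was at 311, 302 and 318 CPM in the resting WT libraries, 23.3, 33.2 and 30.5 in the stimulated WT libraries, 159, 167 and 124 in the resting Raptor KO libraries and 38.5, 31.9 and 23.1 in the stimulated Raptor KO libraries. The resting Raptor KO libraries were below the resting WT ones (-1.05 ± 0.18, adjusted p = 0.00075), and the stimulated groups overlapped. Its response difference, 1.13 ± 0.27, adjusted p = 0.014, was lost at adjusted p = 0.0564 without stimulated WT library 1 and 0.0556 without stimulated Raptor KO library 1. Of 16 interferon response genes, 2 were called higher (median -0.065), Irf1 and the nucleic acid sensor Zbp1 (1.90 ± 0.51, adjusted p = 0.029), which lost its call in 7 omissions.

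Most called genes differed between genotypes in stimulated cells. Compared within one culture, 53 genes were higher (0.505%) and 65 lower (0.619%) in resting Raptor KO than in resting WT cells, and 661 were higher (6.3%) and 569 lower (5.42%) in stimulated cells. Of the 125 genes called lower in the response difference, 105 were lower in stimulated Raptor KO cells and 16 were higher in resting ones. Of the 178 called higher, 150 were higher in stimulated Raptor KO cells and 14 were lower in resting ones. These comparisons share their libraries with the response difference and are given only as its components. By size, the stimulated libraries contributed the larger part in 100 of the 125 and 147 of the 178, and the resting libraries in 25 and 31. Single libraries moved the number called at rest, which was 58 and 65 without resting WT libraries 1 and 2, and 73 and 69 without resting Raptor KO libraries 2 and 3. Without stimulated Raptor KO library 3, 753 were called in stimulated cells.

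**Figure D4:**
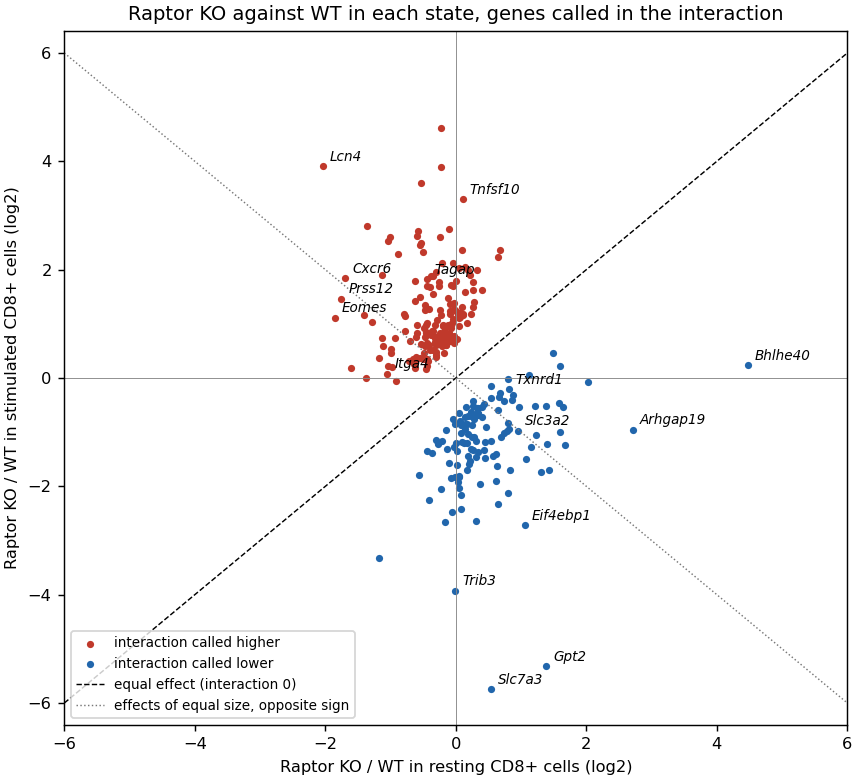
Each point is a gene whose response difference was called, with the log2 ratio of Raptor KO to WT in resting cells on the horizontal axis and in stimulated cells on the vertical axis. Distance below or above the dashed line is the response difference. Trib3 and Tnfsf10 lie along the vertical axis, with Eif4ebp1 to its right and Tagap slightly to its left. Bhlhe40 lies far to the right near 0 on the vertical axis.

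In some called genes the resting cells had a large part. Bhlhe40, a transcription factor that T cell receptor signals induce (chr6:108660629-108666925), was at 0.709, 0.821 and 1.83 CPM in the resting WT libraries, 208, 237 and 138 in the stimulated WT libraries, 38.4, 16.2 and 26.7 in the resting Raptor KO libraries and 248, 258 and 178 in the stimulated Raptor KO libraries. It was higher in every resting Raptor KO library than in any resting WT library (4.47 ± 0.69, adjusted p = 0.0012), and the stimulated groups overlapped (0.23 ± 0.30, adjusted p = 0.68). It rose in both genotypes, and the response difference was -4.24 ± 0.79, adjusted p = 0.0044. The resting WT libraries held 5 counts of Bhlhe40 in all, and limma-voom did not call it. Cxcr6, a chemokine receptor of memory and tissue-resident cells, was at 68.8, 60.0 and 54.9 CPM in the resting WT libraries, 2.37, 2.68 and 2.83 in the stimulated WT libraries, 26.8, 12.8 and 16.0 in the resting Raptor KO libraries and 15.1, 8.89 and 7.06 in the stimulated Raptor KO libraries. It was high at rest in WT and fell there, and did not pass the test in Raptor KO (-0.97). Raptor KO against WT was -1.69 ± 0.44, adjusted p = 0.072 at rest and 1.84 ± 0.67, adjusted p = 0.083 after stimulation, and the response difference was 3.54 ± 0.80, adjusted p = 0.017. That call ended at adjusted p = 0.0509 without stimulated WT library 1, 0.0504 without stimulated WT library 3 and 0.0517 without stimulated Raptor KO library 1. Prss12, a serine protease, was lower in resting Raptor KO (-1.76 ± 0.37, adjusted p = 0.0063) and higher in stimulated Raptor KO (1.46 ± 0.47, adjusted p = 0.032), a response difference of 3.22 ± 0.60, adjusted p = 0.00097. Natural killer and gamma-delta T cell markers were also higher in resting Raptor KO libraries, as given above, and their part in these genes was not tested.

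Lcn4, a lipocalin gene, was at 29.1, 31.2 and 25.0 CPM in resting WT and 6.71, 6.76 and 7.13 in resting Raptor KO libraries, and after stimulation at 0 in all 3 WT libraries, where the floor is 0.378 CPM, and at 0, 2.09 and 0.392 in Raptor KO libraries. It was lower in resting Raptor KO (-2.04 ± 0.45, adjusted p = 0.011), and its called response difference (adjusted p = 0.023) rested on the few counts of stimulated libraries and ended at adjusted p = 0.0519 without stimulated WT library 1, 0.0683 without stimulated WT library 3 and 0.313 without stimulated Raptor KO library 2. Atxn1, ataxin 1, rose more in Raptor KO (1.26 ± 0.31, adjusted p = 0.014) and was lower there at rest (-1.04 ± 0.25, adjusted p = 0.028), with its call lost at adjusted p = 0.0865 without resting WT library 1, 0.0721 without resting Raptor KO library 1 and 0.086 without stimulated Raptor KO library 3.

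Further genes among the largest response differences were Scpep1, a serine carboxypeptidase (-2.91 ± 0.69, adjusted p = 0.01, lost at adjusted p = 0.138 without resting Raptor KO library 1), and Dstyk, a protein kinase (3.02 ± 0.63, adjusted p = 0.0031). Rcn1, a calcium-binding protein of the endoplasmic reticulum, gave 2.05 ± 0.48, adjusted p = 0.0089. Ly6a (Sca-1) rose in both genotypes and less in Raptor KO (-2.61 ± 0.65, adjusted p = 0.03), with its call lost in 6 of 12 omissions. Mfge8, whose protein product was used as the stain for dead cells, was at 10.6, 6.57 and 3.66 CPM in the resting WT libraries, 3.94, 5.89 and 6.50 in the stimulated WT libraries, 12.2, 9.46 and 9.80 in the resting Raptor KO libraries and 1.67, 2.09 and 0.784 in the stimulated Raptor KO libraries. It fell in Raptor KO and did not pass the test in WT (-2.51 ± 0.67, adjusted p = 0.028, lost in 5 of 12 omissions).

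The same response difference was measured in CD4+ cells, in 12 libraries that share none with the CD8+ ones. Same-numbered libraries of both subsets carry the same code in their titles, so the subsets may not be independent. In CD4+ cells the response difference was called higher for 375 genes (3.57%) and lower for 236 (2.25%). Of the 125 genes called lower in CD8+ cells, 117 (93.6%) were also below 0 in CD4+ cells, against 47.6% of all genes tested. They included 55 called lower there, which is 44% of the CD8+ and 23.3% of the CD4+ calls. Of the 178 called higher, 168 (94.4%) were above 0 in CD4+ cells, against 52.4% of all genes, and 70 were called higher, 39.3% of the CD8+ and 18.7% of the CD4+ calls. None was called in the opposite direction. The CD4+ calls numbered 375 in all without stimulated WT library 3 and 394 without stimulated Raptor KO library 1.

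**Figure D5:**
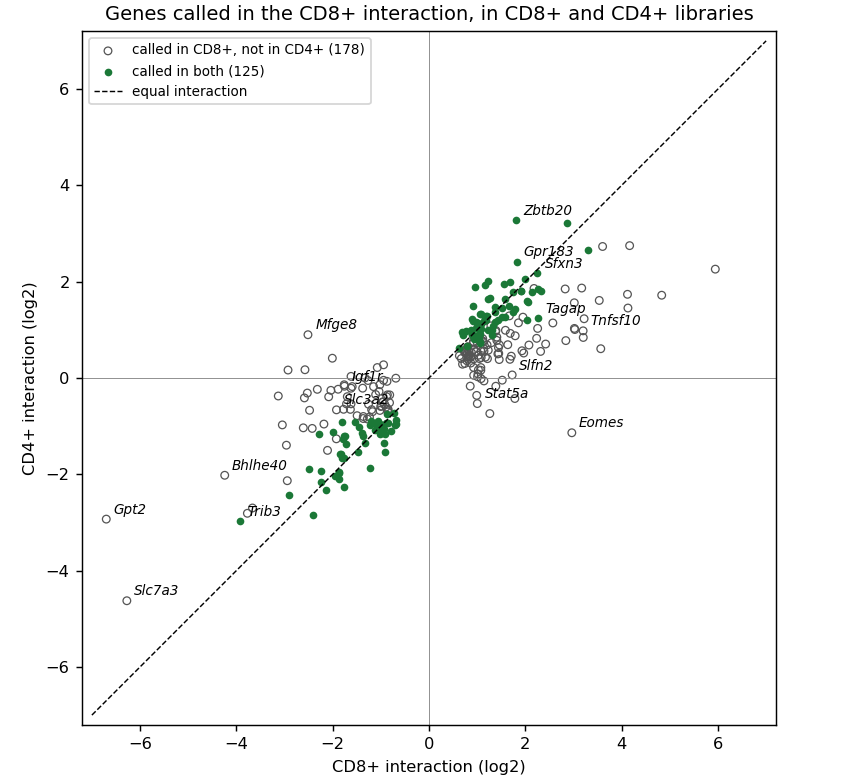
Each point is a gene called in CD8+ cells, with its log2 response difference in CD8+ cells on the horizontal axis and in CD4+ cells on the vertical axis; filled points were called in both subsets. Most points have the same sign on both axes, while Eomes lies below 0 in CD4+ cells and Slfn2 and Igf1r lie near 0 there.

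By list, the ATF4 response had a median of -2.04 in CD4+ cells with 4 called lower, tRNA synthetases -0.86 with 10, glycolysis -1.01 with 10, fatty acid synthesis -1.01 with 6 and cholesterol synthesis -1.02 with 7. Scd2 (-2.85 in CD4+, -2.42 in CD8+), Psph (-1.90 and -2.49) and Zbtb20 (3.28 and 1.81) were called in both subsets. The median of G2 and M phase genes was -1.71 in CD4+ cells, or -1.17 with low groups at the floor, with 1 called lower. That of cytotoxic genes was -0.37 in CD4+ cells, or -0.20 with the 3 members of few counts at the floor, on the other side of 0 from CD8+ cells. Neither difference between subsets was tested as a list.

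The difference between the subsets was tested for each gene. None passed (0%), with 726 genes at an unadjusted p below 0.05, and DESeq2 and limma-voom also called 0. No low-count filter called 5, the replicate number as a block 2, protein-coding genes only 2, and omissions of 1 library up to 4 and of number 3 in every group 6. The smallest adjusted p was that of Ahcyl2, at -1.48 ± 0.28, adjusted p = 0.053. Slfn2 gave 1.73 in CD8+ and 0.063 in CD4+ cells, a difference of 1.66 ± 0.34, adjusted p = 0.092. For Stat5a the values were 1.00 and -0.53, a difference of 1.53 ± 0.34, adjusted p = 0.092. Igf1r stood at -1.75 and -0.17, a difference of -1.58 ± 0.37, adjusted p = 0.13. Eomes stood at 2.97 and -1.14, a difference of 4.10 ± 1.27, adjusted p = 0.38. These genes are candidates that did not pass the adjustment, and a failed test does not show that the subsets responded alike.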

How the data were processed

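RNA was sequenced from 27 mouse T cell libraries in 9 groups of 3, of which the 12 CD8+ libraries gave the main results and 12 CD4+ libraries a comparison. Total RNA was fragmented by ultrasound and an adaptor was ligated to its 3′ ends, per the labels' protocols. The submitters' processing notes name STAR 2.6.0a and GRCm38. How reads were counted, on which annotation and with which strand setting, is not given in the sources used here. Raw counts for each gene were deposited by the authors in 1 table of 26802 genes, of which 26765 matched the reference annotation by gene ID and 37 did not. Without a known strand, overlapping and antisense genes cannot be told apart, and genes with pseudogenes are uncertain.

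Rn45s was left out. The test was edgeR 4.0.16 in R 4.3.3: a filter on low counts (minimum count 10, minimum total 15), TMM scaling, a model of the 9 group means fitted to all 27 libraries, and the quasi-likelihood test with robust dispersions. P-values were adjusted by Benjamini-Hochberg over 10493 genes, with a threshold of 0.05. CPM values use TMM-scaled totals. Non-Rn45s counts were 1522199 to 2263964 per CD8+ library, the common biological coefficient of variation was 0.187, and the test was checked on simulated data. Replicate pairs differed beyond counting error. Sample titles give same-numbered libraries of the WT and Raptor KO groups a shared code whose meaning is not stated. Their deviations from group means correlated at -0.0263 to 0.245 between CD8+ groups, not over 0.1 in every pair, so numbers were not taken to pair them. Alternatives included DESeq2 1.42.0 and limma 3.58.1 (voom).

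Named genes were the 12 largest and 12 smallest response differences among called genes with at least 4 counts in each CD8+ group and 10 CPM in one, the 6 called genes with few counts and the smallest adjusted p, up to 4 called genes and the first 2 of each of 43 lists, and the 5 smallest p in each direction between subsets; a selection is described. The members and lists were chosen with earlier results of these data known. Of the 10493 genes tested, 7945 matched the RefSeq promoter table. A further promoter stretch and a further marker gene are not reported here.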

Additional observations from a re-analysis of the deposited data

How the results depend on the processing

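Rn45s kept in the totals, without TMM factors, left 38 genes called in the CD8+ response difference (5 higher, 33 lower). It left 23 between genotypes at rest, 459 after stimulation and 24 in the CD4+ response difference. Testing against a minimum fold change of 1.5 left 65 (31 higher, 34 lower), 19, 237 and 80 of these, and 3806 in stimulation of Raptor KO cells. A fit to the compared groups only called 116 higher and 119 lower, no low-count filter 145 and 145, DESeq2 131 and 124, limma-voom 183 and 117, and the stricter filter of 5 CPM 176 and 125. The fit with the replicate number as a block called 220 higher and 161 lower and 2 genes between the subsets, and kept all 86 named calls. Same-numbered libraries share a code in the titles, which do not say what it marks, and in 9 of 18 cases a library correlated best with its own number. Between the subsets, no filter called 5 genes. Protein-coding genes only, an alternative chosen after seeing the data, called 177 higher and 129 lower, and 2 between subsets.

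Leaving out 1 library gave 216 to 288 calls (118 to 166 higher, 89 to 138 lower). Leaving out 1 number in every group gave 46 to 244 (24 to 129 higher, 22 to 115 lower). In the same order, calls were 58 to 97 and 20 to 116 at rest, 753 to 1100 and 449 to 822 after stimulation, 375 to 664 and 80 to 474 in CD4+ cells, and 0 to 4 and 0 to 6 between subsets. Stimulation in WT gave 6045 to 6471 and 5507 to 5893, and in Raptor KO 5286 to 5629 and 4622 to 5210. Of the 86 named genes called, 53 kept the call in each single-library omission, 31 without number 1, 34 without number 2, 63 without number 3 and 30 with Rn45s kept, and none reversed. Genes not called changed sign in places. Il2ra gave -0.33 with Rn45s kept, -0.17 to 0.998 over single-library omissions and -0.21 to 1.10 over omissions of a number. Klf2 gave -0.21, -0.0357 to 0.57 and -0.0526 to 0.499 in that order, and Myc -0.0298, -0.28 to 0.62 and 0.0595 to 0.47. The cause was not tested, except that omissions leave fewer libraries.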

Other observations

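Of the 178 genes called higher, 29 were not annotated as protein coding, against 1 of the 125 called lower, Trac (the constant segment of the T cell receptor alpha chain), whose call ended in 4 of the 12 single-library omissions. Of 1042 such genes tested, 2.78% were called higher, against 1.58% of protein-coding genes. This pattern was chosen after its values were seen. Of the 29, 24 overlapped the span of a protein-coding gene, and the overlapped gene was itself called in 3 cases. E430014B02Rik and C230085N15Rik gave 2.14 and 1.91, while Satb1, the chromatin organiser gene they lie in, gave 0.17. Gm45221 and Gm45223 gave 2.33 and 1.75 within Picalm, an endocytosis gene at 0.66, and the call of Gm45223 ended without resting WT library 3 (adjusted p = 0.0531). A130071D04Rik gave 1.99 within Ptprc (CD45), which was at 0.28, and Gm37488 gave 2.03 within Mbnl1, a splicing regulator at -0.16. Malat1, an abundant nuclear RNA, gave 1.23, and its call ended without stimulated Raptor KO library 3 (adjusted p = 0.0753). The protein-coding share of non-Rn45s counts was 31.8% to 47.8% in stimulated Raptor KO and 49.9% to 62.5% in stimulated WT libraries. Its part in these calls was not tested, and the strand of counting is not given in the sources used here.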
